A study of Caenorhabditis elegans with 12 samples.

Results

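Larvae under strong RNAi against *nuo-5* were compared here with larvae under mild RNAi against the same gene, which asks what gene expression gained or lost as depletion went on from the parental generation to its progeny. The members are 8 of the 12 arrays of the series, 4 labelled strong and 4 labelled mild, chosen by their genotype labels, and the comparison covers the 25478 genes that the array annotation gives by name. All animals were wild-type N2 worms collected whole at the L3 larval stage and grown at 20 °C. Strong RNAi means progeny (the first filial generation) on bacteria that express double-stranded RNA of *nuo-5*, mild RNAi means the parental generation on such bacteria, and control animals ate bacteria with the empty vector pL4440. The strength of RNAi and the generation change together, so they cannot be told apart, and the labels do not say which generation each control sample is. The study describes the strong larvae as arrested in development, so differences in stage lie within this comparison. Plates carried lutein or its vehicle DMSO by the treatment label, which does not say which for each sample. The study describes its comparison of control, mild and strong larvae without lutein. It names lutein for a second comparison, of strong RNAi with and without it. Each group holds biological replicates I, III, IV and V, and values are listed below in that order. For its microarrays the study reports that more samples were collected per condition and that a replicate was excluded as very different from the rest. Which number that replicate had in this series is not given. On strong arrays I, IV and V several yolk, oocyte and adult cuticle genes stood far above the mild arrays. *col-7* and *col-62*, also used as adult collagens, did not pass. *col-7* was already bright in mild and control larvae (mean log2 values 10.06 and 10.04), and *col-62* was dim in both (2.97 and 3.17). The part of stage in these results was not tested. RNA came from whole animals, so fewer cells of a type and less RNA per cell cannot be told apart.

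*nuo-5* encodes the worm counterpart of human NDUFS1, an iron-sulfur subunit in the part of respiratory complex I that oxidises NADH. Worms fed double-stranded RNA lose the matching mRNA, and the loss is often deeper in progeny whose mothers ate it too. In *C. elegans*, a partial block of the respiratory chain is known for extended lifespan, and a severe one for larval arrest.

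The target itself did not pass between strong and mild larvae. *nuo-5* had log2 values of 6.95, 7.09, 7.22 and 6.89 on the strong arrays, against 7.15, 7.56, 7.25 and 7.66 on the mild arrays, and 8.29, 8.56, 8.43 and 8.42 on the control arrays. The strong arrays overlapped the mild ones and all RNAi arrays lay below all control arrays. The strong minus mild difference of −0.37 (standard error 0.14) did not pass (adjusted p = 0.118 from limma, 1 fit of 3 group means over 12 arrays). A two-sided exact permutation test of the 4 strong against the 4 mild arrays gave p = 0.0571, where 0.0286 is the smallest p that 4 against 4 allow. On the linear scale this is 77.5% of the mild signal, and the mild minus control difference was −1.02.

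Many genes other than the target differed. Of 25478 genes, 1606 were higher (6.30%) and 1097 lower (4.31%) under strong than under mild RNAi at an adjusted p of 0.05, which together is 10.6% of the genes, and 22775 did not pass. At an unadjusted p of 0.05 the counts were 3321 and 2909. The 4 strong and 4 mild arrays did not overlap for 14.6% of the genes, which include 1365 of the higher and 942 of the lower genes. The higher genes moved further. Their median level was 6.40 under strong and 5.15 under mild RNAi with a median difference of 1.00, and 148 of them passed 2 on the log2 scale. The lower genes had a median level of 6.37 under strong and 7.34 under mild RNAi with a median difference of 0.80 in size, and 36 passed 2. A log2 level of 3.01 is the 40th percentile of all values, and 188 of the higher genes lay below it in mild larvae, where folds are resolved poorly. In each gene given below by its arrays the 4 strong arrays lay beyond all 4 mild arrays, other than *hsp-6*, *rab-3* and *puf-5*. Where 0 members of a list passed in a direction in limma, 0 to 3 passed an unadjusted p of 0.05 in it, other than 11 cytosolic ribosomal protein genes on the lower side.

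**Figure D1:**
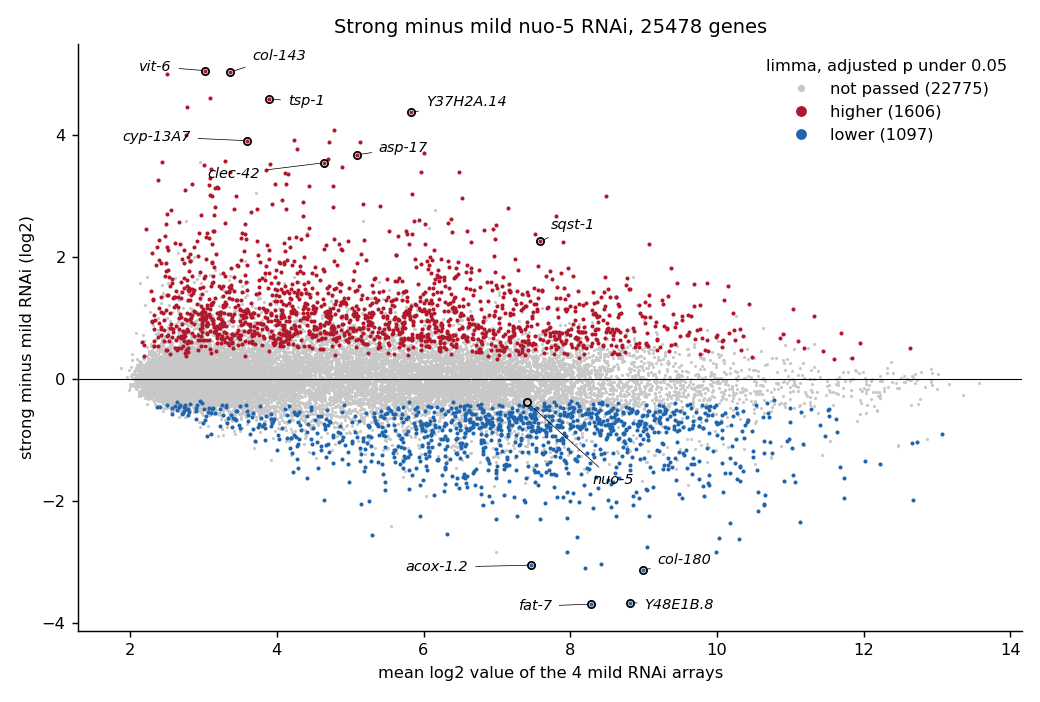
Difference between strong and mild RNAi (y axis, log2) against the mean log2 value of the 4 mild arrays (x axis) for 25478 genes, with the 1606 higher genes in red, the 1097 lower genes in blue and genes that did not pass in grey. Circles mark named genes, and *nuo-5* lies in the grey band at −0.37 while *vit-6* stands at 5.06 and *fat-7* at −3.68.

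The strong arrays were not alike. Arrays of 1 group correlated at 0.960 to 0.981 in strong, 0.978 to 0.983 in mild and 0.975 to 0.985 in control larvae, and array medians spanned 3.41 to 3.57. On the first principal component of the 8 arrays (50.5% of their variance) the strong arrays I, IV and V stood at 32.7, 52.6 and 75.4 and the mild arrays at −48.1 to −33.9, while strong array III stood at 0.55, between the groups. Without strong array III the counts were 2094 higher and 1551 lower genes, of which 1489 and 1027 were among the calls with all arrays. Without 1 of strong IV, strong V, mild III and mild V the higher genes numbered 891 to 1038, and without 1 of these 4 or mild I the lower genes numbered 518 to 722. What sets strong array III apart is not given by the labels.

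**Figure D2:**
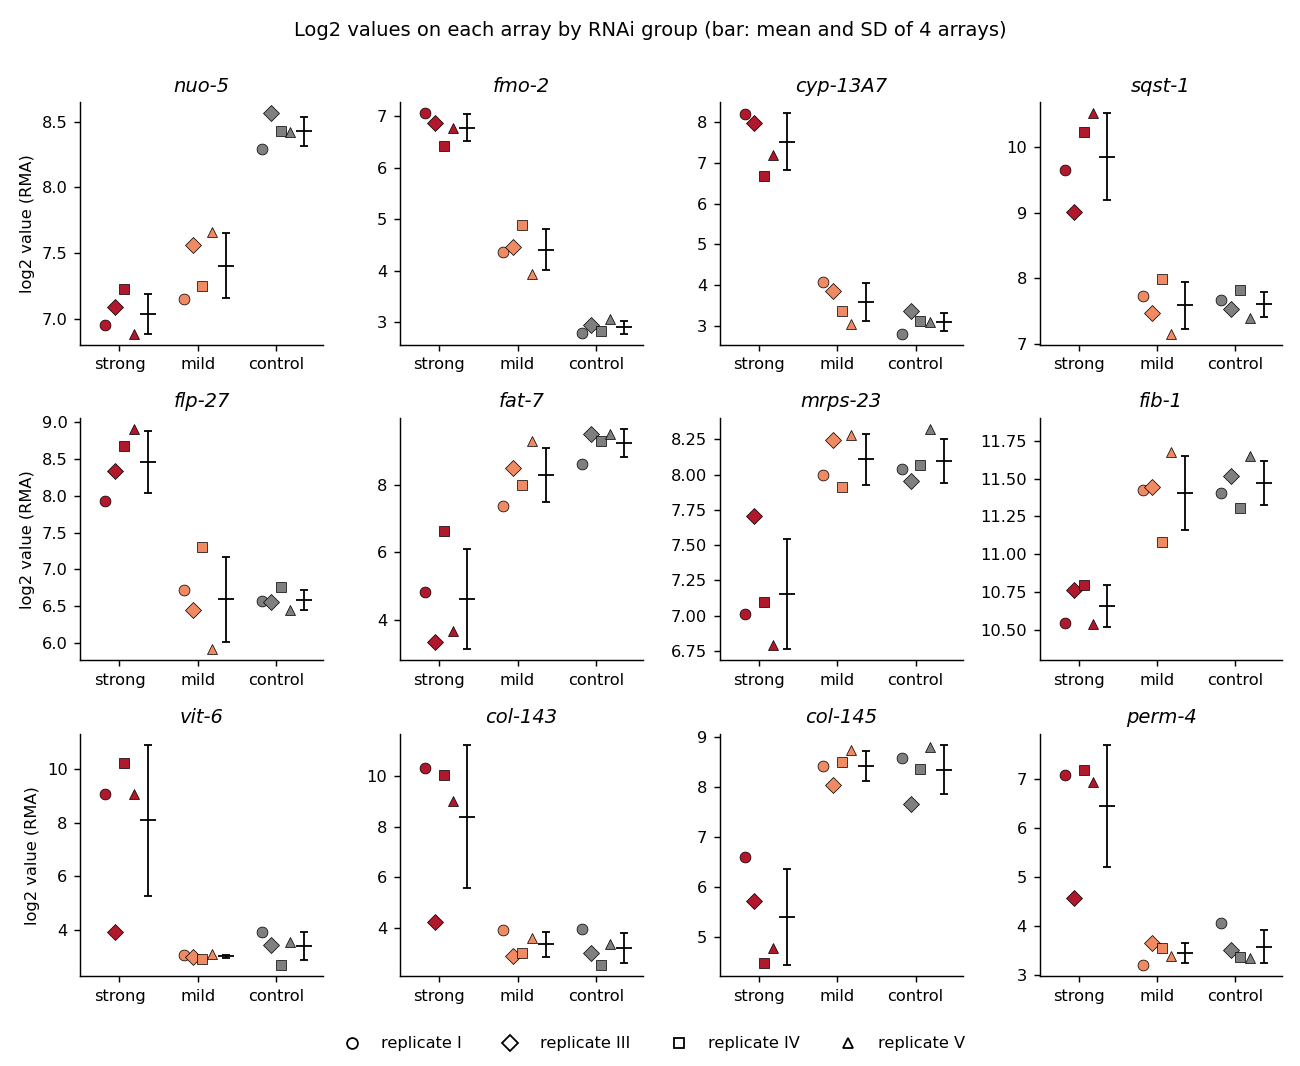
Log2 values (y axis) of 12 genes on the 4 arrays of strong, mild and control larvae, with a symbol per replicate and the mean and SD of the 4 arrays beside them. The diamond of strong array III lies with the other strong arrays for *fmo-2*, *cyp-13A7* and *fib-1*, and near the mild arrays for *vit-6* and *col-143*.

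*fmo-2*, T16G1.6 and B0205.13 were, beside *nuo-5*, the genes that passed between mild and control larvae, and all 3 rose again under strong against mild RNAi. *fmo-2*, a flavin-containing monooxygenase of the endoplasmic reticulum that long-lived worms often induce, had 7.06, 6.86, 6.43 and 6.78 on the strong arrays, against 4.36, 4.46, 4.89 and 3.92 on the mild arrays, with a control mean of 2.9. Its strong minus mild difference was 2.37 (standard error 0.19, adjusted p = 9.40e-05) beside a mild minus control difference of 1.51. T16G1.6, a gene with no role known here, had 9.46, 9.35, 9.03 and 9.04 on the strong arrays and 7.44, 7.51, 7.09 and 6.97 on the mild arrays, a difference of 1.97 beside one of 1.4 between mild and control larvae. It is 1 of 4 neighbours on chromosome V, T16G1.4 to T16G1.7, that all rose, by 1.64 to 2.48. B0205.13 differed by 0.78 between strong and mild and by 1.31 between mild and control larvae. Both differences share the mild arrays, whose noise enters them with opposite sign.

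None of the genes with the largest changes passed between mild and control larvae. The 15 largest rises whose arrays did not overlap were *vit-6* at 5.06, *col-143* at 5.04, *col-119* at 5.0, *vit-2* at 4.62, *tsp-1* at 4.59, *vit-5* at 4.47, Y37H2A.14 at 4.38, F33H12.7 at 4.08, *col-19* at 4.01, *fbxa-24* at 3.93, *cyp-13A7* at 3.91, *mtl-1* at 3.89, B0348.2 at 3.77, *tts-1* at 3.71 and *asp-17* at 3.68. Their mild minus control differences ran between −0.89 (*asp-17*) and 0.49 (*cyp-13A7*). *tts-1* is a long noncoding RNA that is known to be abundant in long-lived mutants. It had 9.36, 9.29, 10.09 and 10.13 on the strong arrays and 5.69, 5.77, 7.58 and 4.99 on the mild arrays, of which mild IV was the highest. *mtl-1* encodes a metallothionein of the intestine that binds heavy metals, and it had 9.09, 7.43, 10.35 and 9.22 on the strong and 4.1, 4.58, 6.8 and 5.05 on the mild arrays.

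Among the falls whose arrays did not overlap *fat-7* was the largest at −3.68, followed by Y48E1B.8 at −3.66, *col-180* at −3.13, *acox-1.2* at −3.04, *col-145* at −3.03, *nspb-10* and K01D12.9 at −2.83 each, *nspb-7* at −2.75, *col-170* at −2.61, *col-156* at −2.6, *idpc-3* at −2.59, *ilys-5* at −2.54, *nspb-9* at −2.53, K02E11.10 at −2.36 and *col-157* at −2.33. *ilys-5*, one of the invertebrate-type lysozymes, had 2.66, 2.4, 3.61 and 2.39 on the strong arrays, against 5.32, 5.49, 4.77 and 5.64 on the mild arrays, so that 3 strong arrays were below 3.01. Between mild and control larvae the 15 genes ran between −0.95 (*fat-7*) and 0.56 (*nspb-10*). The calls of *nspb-10*, *nspb-7* and *nspb-9* ended without 1 of mild I, mild V, strong IV and strong V (highest adjusted p 0.0772, 0.0857 and 0.0813), that of *nspb-7* also without mild IV. The call of *idpc-3* ended without 1 of mild I, mild III, mild V and strong IV (up to 0.096), and that of *col-157* without mild V or strong IV (up to 0.0586).

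Many nuclear genes for the mitochondrial ribosome fell under strong RNAi. This ribosome makes the few respiratory subunits encoded in mitochondrial DNA. Of 70 mitochondrial ribosomal protein genes, 38 fell, 1 rose and 31 did not pass, and their median difference was −0.56 beside −0.04 over all genes and 0.05 for the same list between mild and control larvae. *mrps-23*, of the small subunit, had 7.01, 7.7, 7.1 and 6.79 on the strong arrays and 8.0, 8.24, 7.91 and 8.28 on the mild arrays (difference −0.95, adjusted p = 0.00797). *mrpl-15* differed by −0.97 and *mrps-34* by −0.96, whereas *mrps-11* rose by 0.54. The medians of the list by array, relative to the mild mean, were −0.52, −0.19, −0.66 and −0.89 on the strong arrays in replicate order, so that array III moved least. Without it 57 of the 70 fell, and without 1 of strong IV, strong V, mild III, mild IV and mild V 15 to 21 did. Of 15 cytochrome c oxidase assembly genes named coa and cox, 5 fell, with *coa-3*, which helps build complex IV, at −0.82 (3 without 1 of strong I, IV and V, the mild arrays and control I and III, 8 without strong III).

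Fewer genes for the respiratory chain itself passed. Of 33 complex I subunit genes other than *nuo-5*, 4 fell, 0 rose and 29 did not pass, with a median of −0.33. *nduf-2.2* was at 6.54, 5.51, 6.13 and 5.54 on the strong and 6.93, 6.93, 6.7 and 7.11 on the mild arrays, with strong III the lowest of all (difference −0.99). This count turned on single arrays, since 16 of the 33 fell without strong array III and 1 to 2 without any 1 of strong IV, strong V and the mild and control arrays. By array the median was −0.16, 0.05, −0.43 and −0.78 on the strong arrays in replicate order. Of 33 genes for complexes II to V and cytochrome c, 3 fell and 0 rose (median −0.14). These were *ucr-2.3* of complex III at −0.83, and *asg-1* and *asb-1*, which encode subunits g and b of the ATP synthase, at −0.82 and −0.66, and without strong array III 8 fell. None of the 12 mitochondrially encoded genes passed in limma, and their median was −0.20 beside −0.03 between mild and control larvae.

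Genes for import into mitochondria gave both directions. *timm-23*, the channel subunit of the inner membrane import complex, had 10.45, 10.36, 10.1 and 10.54 on the strong arrays and 9.77, 9.61, 9.86 and 9.55 on the mild arrays and rose by 0.66 (adjusted p = 0.00772). It was 1 of 12 import genes that rose, while 3 fell with all arrays, 10 without strong array III, 0 without 1 of strong IV, strong V, mild III, mild IV and mild V, and 1 without 1 of strong I, mild I and the control arrays. *hsp-6*, the mitochondrial Hsp70 whose reporter is the usual sign of the mitochondrial unfolded protein response, had 12.59, 12.67, 12.33 and 12.4 on the strong arrays, against 12.53, 12.54, 12.35 and 12.16 on the mild arrays, a difference of 0.10 with adjusted p = 0.67. *hsp-60*, the matrix chaperonin, differed by −0.54 and *atfs-1*, the transcription factor of that response, by 0.54. They were among the 1 rise and 2 falls of 14 genes for mitochondrial chaperones, proteases and their regulators, of which 0 passed in either direction without any 1 array other than strong III (1 rise and 5 falls) and control IV (1 fall). Both passed with all arrays, but the call of *hsp-60* ended without any 1 of 10 arrays (adjusted p up to 0.104) and that of *atfs-1* without any 1 of 11 (up to 0.124).

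Enzymes of central carbon metabolism passed in part. Of 22 genes of the tricarboxylic acid (TCA) and glyoxylate cycles 3 fell (13.6%, beside 4.31% over all genes). All 3 encode succinyl-CoA synthetase, the enzyme that turns succinyl-CoA into succinate. *sucg-1*, its GTP-forming beta subunit, had 6.95, 7.21, 6.97 and 6.25 on the strong and 8.27, 8.31, 7.93 and 7.91 on the mild arrays, a difference of −1.26 (standard error 0.19, adjusted p = 0.00299). *sucl-2* differed by −0.86 and *suca-1* by −0.71, and for none of the 3 did the strong and mild arrays overlap. Their mild minus control differences were 0.01, −0.06 and −0.09. Without strong array III 5 TCA genes fell, and the 1 rise among them, the isocitrate dehydrogenase *idha-1* at 0.42, ended without any 1 of 10 arrays (adjusted p up to 0.118). Of 25 genes of glycolysis and gluconeogenesis 1 rose, the hexokinase *hxk-1* at 0.71, and 1 fell, the fructose bisphosphatase *fbp-1* at −0.58, a call that also ended without any 1 of 10 arrays (adjusted p up to 0.0993), while 4 fell without strong III. With all arrays each direction held 4% of this list, beside 6.30% higher and 4.31% lower over all genes.

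Among fatty acid desaturases, the enzymes that add double bonds, 1 fell and 4 rose. *fat-7*, a stearoyl-CoA desaturase that makes oleic acid, had 4.8, 3.33, 6.63 and 3.65 on the strong arrays, against 7.38, 8.49, 7.98 and 9.3 on the mild arrays and a control mean of 9.23. Its difference of −3.68 left 7.79% of the mild signal, and the mild minus control difference was −0.95. The desaturases that lead on to polyunsaturated fatty acids rose. *fat-2*, which acts on oleic acid, had 12.23, 12.15, 12.21 and 12.18 on the strong arrays and 11.21, 11.34, 10.78 and 10.83 on the mild arrays (difference 1.15). *fat-3* had 10.42, 10.32, 10.83 and 10.61 on the strong and 9.16, 9.4, 9.4 and 9.03 on the mild arrays (difference 1.3, adjusted p = 0.000547), *fat-1* differed by 0.76 and *fat-4* by 0.72. They made up the 4 of 19 desaturase and elongase genes that rose, and *fat-7* the 1 that fell. The call of *fat-4* ended without mild V (adjusted p = 0.0594). The mild minus control differences of these 4 ran between −0.12 (*fat-4*) and 0.08 (*fat-1*).

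Peroxisomal acyl-CoA oxidases, which shorten the side chains of ascaroside pheromones, fell in a row of neighbours. *acox-1.2* had 3.85, 5.66, 4.01 and 4.14 on the strong arrays and 7.49, 8.26, 6.62 and 7.47 on the mild arrays, a difference of −3.04 (adjusted p = 0.00164), and array III was the highest of the strong ones. *acox-1.1* differed by −0.79 and *acox-1.4* by −1.48. These genes and *acox-1.3* (−1.18, a call that ended without any 1 of 8 arrays, with adjusted p up to 0.116) stand in a row on chromosome I, are similar in sequence and may share probes. The call of *acox-1.4* ended without strong IV or mild V (adjusted p up to 0.0524). In all, 5 of 15 genes of peroxisomal oxidation and ascaroside synthesis fell, 2 to 3 without 1 of strong IV, strong V, mild IV and mild V, and 1 rose, the peroxisomal transporter *pmp-1* at 1.45. The list for mitochondrial fatty acid oxidation gave 4 falls and 1 rise among 31 genes. The rise was *ech-9*, an enoyl-CoA hydratase, at 1.51, and where in the cell it acts was not tested. Without 1 of strong IV, strong V and mild V 1 to 2 of the 31 fell, and without strong III or mild IV 2 rose.

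Some enzymes that supply methyl groups fell. *sams-1*, which makes S-adenosylmethionine, the methyl donor for phosphatidylcholine, had 8.21, 8.79, 8.49 and 8.15 on the strong arrays, against 9.59, 10.18, 9.53 and 9.71 on the mild arrays (difference −1.34, adjusted p = 0.00173). *pmt-2*, a methyltransferase that uses this donor to make phosphatidylcholine, had 8.02, 8.27, 8.34 and 7.52 on the strong and 9.06, 9.39, 9.11 and 9.28 on the mild arrays (difference −1.17), and *mel-32*, the serine hydroxymethyltransferase that feeds one-carbon units in, differed by −1.15. They were 3 of the 4 falls among 22 genes of the methionine cycle and one-carbon metabolism, with 0 rises and a list median of −0.38.

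Genes for splicing, transcription and protein folding fell, and strong array III took part. Of 14 spliceosomal Sm and Lsm protein genes, the ring proteins that bind small nuclear RNAs, 12 fell, 0 rose and all 14 had a negative difference (median −0.62, against −0.02 between mild and control larvae). *snr-5* had 8.51, 8.88, 8.84 and 8.25 on the strong arrays and 9.32, 9.61, 9.21 and 9.7 on the mild arrays (difference −0.84). Of 23 translation initiation factor genes 11 fell, of 12 RNA polymerase II subunit genes 6, and of 14 prefoldin and CCT chaperonin genes, which fold actin and tubulin, 7, and no member of these 3 lists rose. *eif-3.K* stood at −0.76, *eif-6* at −0.75, *rpb-5* at −0.77 and *pfd-2* at −0.78. On strong array III the medians of the 4 lists were −0.51, −0.33, −0.57 and −0.33 over the mild mean, and without it 13, 12, 6 and 7 of their genes fell. Without strong V 7 Sm and Lsm genes did, and without strong V or mild V 3 RNA polymerase II genes. These 4 lists, like those of the coa and cox, nssp, nspb and nspc, idpc, pals, clc, P-glycoprotein, neuropeptide receptor and mitochondrially encoded genes, were put together after values had been seen, so their counts are a description.

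Genes of the cytosolic ribosome did not pass, while some of those that build it, charge tRNAs or break proteins down did. Of 75 cytosolic ribosomal protein genes 0 passed in limma in either direction (0 also without strong array III), at a median of −0.07. Ribosome biogenesis gave 9 falls and 5 rises among 38 genes. *fib-1*, the fibrillarin methyltransferase of the nucleolus, had 10.54, 10.77, 10.8 and 10.54 on the strong arrays and 11.43, 11.44, 11.08 and 11.68 on the mild arrays (difference −0.75). *nog-1* and *byn-1*, which act in assembly of the ribosomal subunits, rose by 1.14 and 1.09. Of 31 aminoacyl-tRNA synthetase genes 9 fell, among them the prolyl enzyme *pars-1* at −0.73, and 1 rose, the leucyl enzyme *lars-1* at 0.77. Of 33 proteasome subunit genes 11 fell and 0 rose, with *rpt-2*, an ATPase of the regulatory particle, at −0.63. These counts moved by single arrays, to 3 to 5 synthetases without 1 of strong IV, strong V, mild I, mild III and mild V, and to 2 to 7 proteasome genes without 1 of strong IV, strong V, mild III and mild V.

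Neuropeptides are the modulatory transmitters of the worm, cut from larger precursors and released from dense core vesicles. Their genes had the largest share called higher among the lists of at least 9 members. Of the 31 FMRFamide-like peptide genes (flp), 22 rose, 0 fell and 30 had a positive difference, with a median of 1.09 beside 0.11 for the same genes between mild and control larvae. The share of 71.0% stands beside 6.30% over all genes. *flp-27* had 7.92, 8.34, 8.67 and 8.91 on the strong arrays and 6.72, 6.44, 7.3 and 5.91 on the mild arrays, a 3.65-fold higher level (difference 1.87, standard error 0.27, adjusted p = 0.00222). *flp-3* had 7.69, 7.45, 8.35 and 8.8 on the strong and 6.23, 6.22, 6.83 and 6.39 on the mild arrays (difference 1.66), *flp-33* differed by 1.6 and *flp-21* by 1.5. Strong array III took part, with a list median of 0.74 over the mild mean beside 0.59, 1.27 and 1.57 on arrays I, IV and V. The mild arrays spread from −0.23 on array I to 0.40 on array IV. Leaving out 1 array gave 19 (without 1 of strong IV, strong V, mild I, mild III and mild V) to 26 (without strong I) rises.

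**Figure D3:**
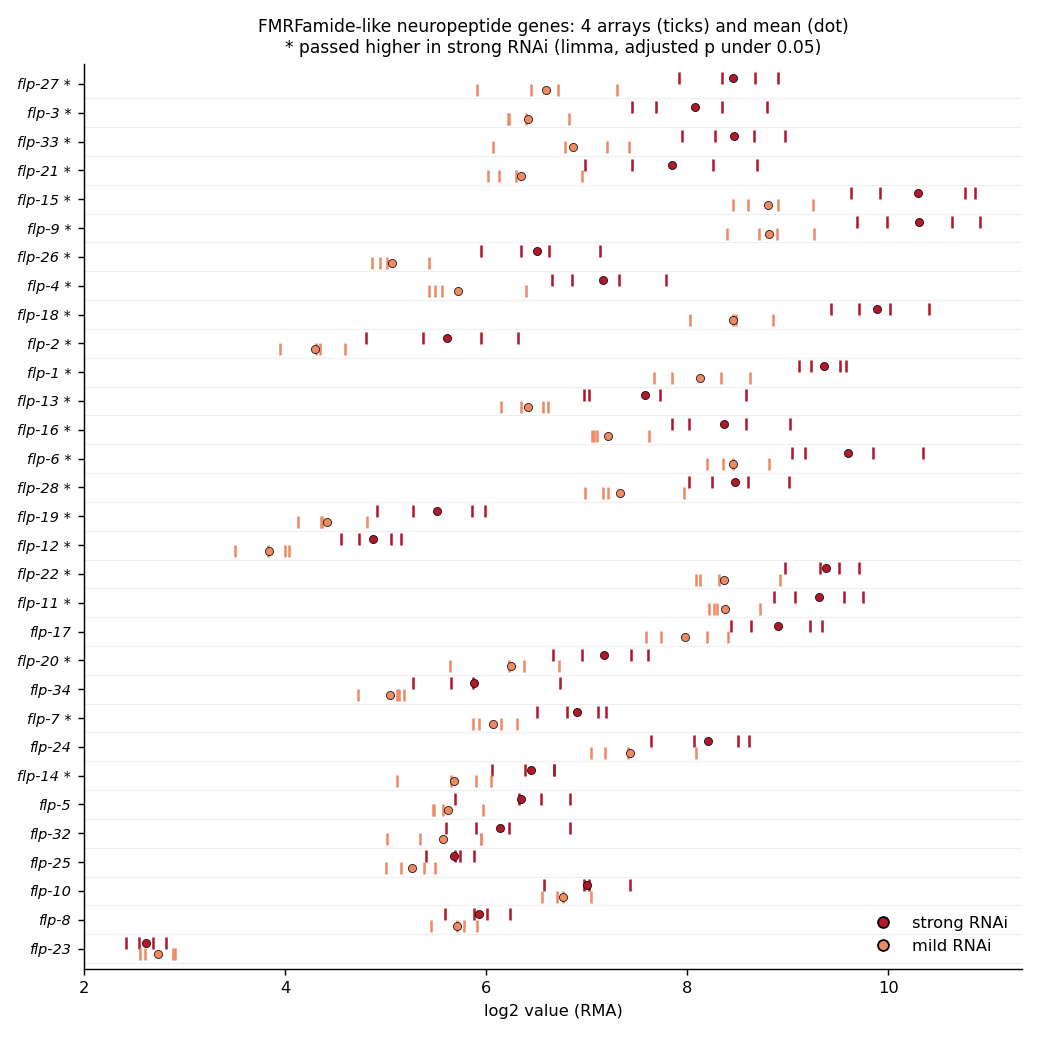
Log2 values (x axis) of the 31 FMRFamide-like peptide genes (rows, from the largest to the smallest difference), with strong RNAi above mild RNAi in each row, a tick per array and a dot for the mean. The 22 genes with an asterisk passed, and the largest difference is 1.87 for *flp-27*.

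Other peptide families and the enzymes that process peptides rose too. Of 83 neuropeptide-like protein genes 39 rose and 1 fell, at a median of 0.74. *nlp-2* had 6.13, 5.63, 6.2 and 6.43 on the strong arrays and 4.39, 4.02, 4.43 and 3.72 on the mild arrays (difference 1.96, adjusted p = 0.000406), and *nlp-5* and *nlp-8* each differed by 1.5. The fall was *nlp-24*, of a group of genes also known as antimicrobial peptides of the skin, at −0.89. The rises numbered 21 to 25 of the 83 without 1 of strong IV, strong V and mild V. Of 14 genes for peptide processing and dense core vesicles 7 rose and 0 fell (median 0.67). *sbt-1*, the chaperone of the prohormone convertase, differed by 1.34, *egl-21*, the carboxypeptidase that trims peptide ends, by 1.27, *egl-3*, the convertase that cuts them free, by 1.21 and *pghm-1*, which makes their amidated ends, by 1.21. *pghm-1* was at 9.52, 9.75, 10.41 and 10.91 on the strong and 8.76, 8.88, 9.35 and 8.74 on the mild arrays. Of 84 genes named nssp, for nematode-specific secreted peptides, 37 rose and 0 fell, with *nssp-62* at 2.43 (adjusted p = 9.40e-05). Of 106 neuropeptide receptor genes 17 rose and 0 fell (7 to 10 without 1 of strong IV, strong V, mild III and mild V).

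Fewer general neuronal genes passed. Of 46 genes for synaptic vesicles, transmitters and scaffolds 3 rose and 0 fell (median 0.26), and 10 rose without strong I and 5 without strong III. *unc-18*, which readies vesicles for fusion, had 7.68, 7.42, 7.35 and 7.61 on the strong and 6.57, 6.66, 6.4 and 6.04 on the mild arrays (difference 1.1), and *tbh-1*, the enzyme that makes octopamine, differed by 1.98. *rab-3*, a marker of synaptic vesicles in all neurons whose strong and mild arrays overlapped, had 6.91, 7.53, 7.65 and 7.92 on the strong arrays, against 7.01, 7.29, 7.48 and 6.88 on the mild arrays (difference 0.33, adjusted p = 0.387), and *snb-1*, synaptobrevin, differed by 0.50 (adjusted p = 0.0644). The 46 genes summed to 6482 to 9205 on the strong, 5741 to 6747 on the mild and 5604 to 6450 on the control arrays on the linear scale, and the part of neuron number in the peptide result was not tested. The neuroligin gene *nlg-1* was at −0.12 (adjusted p = 0.72) and the neurexin gene *nrx-1* at 0.71 (adjusted p = 0.0996), and neither passed. Of 107 ligand-gated ion channel genes 6 rose (3 without 1 of strong IV, strong V and mild V, 11 without strong I) and 3 fell (0 to 1 without any 1 array other than strong III and control IV). Of 53 cilium genes 3 rose (1 without strong V or mild V, 6 without strong I) and 0 fell. The shares called higher were 6.52% for the synaptic list, 5.61% for ion channels and 5.66% for cilium genes. All lay near the 6.30% over all genes. Of 1305 chemoreceptor genes, 1203 of which had means below 3.01 in all groups, 24 rose (1.84%, below the 6.30% over all genes) and 3 fell. The chemoreceptor rises numbered 8 to 10 without 1 of strong IV, strong V, mild III and mild V and 12 to 15 without 1 of mild I, mild IV and controls I, III and V, and the falls 0 to 1 without any 1 array other than strong III and control IV.

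Signals that neurons and other tissues use to control growth and dauer entry were among the rises. *daf-7*, the TGF-beta ligand by which sensory neurons hold off the dauer stage, had 7.14, 7.48, 8.05 and 8.92 on the strong arrays, against 6.14, 6.43, 6.65 and 5.53 on the mild arrays (difference 1.71, adjusted p = 0.00871). With *sma-9*, a zinc-finger protein of the body size pathway, at 0.77, it was among 4 of 19 TGF-beta genes that rose, with 0 falls and 2 rises without 1 of strong IV, strong V, mild III and mild V. In the list of insulin receptor to FOXO, AMPK and TOR signalling 5 of 26 genes rose and 0 fell (8 rose without strong III). The insulin receptor gene *daf-2* differed by 0.85, the insulin receptor substrate *ist-1* by 1.3 and the FOXO transcription factor *daf-16* by 0.91. *daf-16* had 8.34, 8.32, 8.51 and 8.64 on the strong and 7.76, 7.48, 7.43 and 7.5 on the mild arrays (adjusted p = 0.00168). *aakg-4*, a gamma subunit of the energy sensor AMPK and another of these 5 rises, differed by 1.42. Of 40 insulin-like peptide genes 6 rose, led by *ins-11* at 2.13 and *ins-24* at 2.01, and 1 fell.

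Autophagy is the delivery of cell contents to lysosomes, and its calls were all rises. Of 35 genes 11 rose, 0 fell and 28 had a positive difference, at a median of 0.45 against 0.01 between mild and control larvae. *sqst-1*, the worm p62 that carries ubiquitinated cargo into autophagosomes, had 9.66, 9.02, 10.22 and 10.51 on the strong arrays, against 7.73, 7.47, 7.99 and 7.16 on the mild arrays, a 4.79-fold higher level (difference 2.26, adjusted p = 0.00101). *allo-1*, an adaptor that marks paternal mitochondria for removal, had 8.2, 7.76, 8.58 and 8.84 on the strong and 6.85, 6.27, 6.98 and 6.22 on the mild arrays (difference 1.77). *dct-1*, the mitophagy receptor related to BNIP3, had 9.32, 9.24, 9.19 and 9.7 on the strong and 8.09, 7.85, 8.45 and 7.51 on the mild arrays (difference 1.39). The mild minus control differences of these 3 were −0.01, 0.30 and 0.17. The rises numbered 6 of the 35 without 1 of strong IV, strong V, mild III and mild V. Lysosomal cathepsins gave 3 rises, of which *asp-17* and *cpr-3* (2.67) were the largest, and 1 fall, *asp-14* at −2.08, among 28 genes (0 falls without 1 of strong V, mild I, mild IV and mild V, adjusted p up to 0.0911), and the V-ATPase 0 of 19 in either direction in limma.

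Detoxification genes rose in some families. Of 74 cytochrome P450 genes 17 rose and 1 fell, the fall being lost without 1 of strong I, strong IV, strong V, mild III and mild V. The rises were led by neighbours on chromosome II, *cyp-13A7* at 3.91, *cyp-13A8* at 3.61 and *cyp-13A5* at 3.18. *cyp-13A7* had 8.18, 7.98, 6.68 and 7.2 on the strong arrays and 4.09, 3.86, 3.38 and 3.05 on the mild arrays (adjusted p = 9.40e-05), and *cyp-13A8* had 8.64, 8.13, 7.76 and 8.71 on the strong and 5.41, 4.49, 4.95 and 3.93 on the mild arrays. The mild minus control differences of the 3 were 0.49, 0.91 and 0.82, none of which passed, and such close copies may share probes. *cyp-14A4* on the X chromosome had 8.87, 8.36, 7.78 and 7.97 on the strong and 6.93, 5.72, 6.81 and 4.61 on the mild arrays (difference 2.22 beside 1.41 between mild and control larvae). Of 67 UDP-glucuronosyltransferase genes 8 rose, led by *ugt-18* at 2.69, and 3 fell, and of 48 glutathione S-transferase genes 10 rose, led by *gst-15* at 1.8, and 2 fell, among them *gst-10* at −1.28. The shares called higher were 11.9% and 20.8%, beside 6.30% over all genes. The shares called lower, 4.48% and 4.17%, were near the 4.31% over all genes. Without 1 of strong V, mild IV and mild V 4 to 5 glucuronosyltransferases rose, and 0 to 1 fell without 1 of strong IV, strong V, mild I, mild V and controls I, III and V, against 5 without strong III. Without 1 of strong III, strong V, mild III and mild V 4 to 6 glutathione S-transferases rose, and without strong I 5 fell. *pgp-1*, a transporter that expels drugs, differed by 1.82.

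Single genes of the stress lists passed. *sod-4*, the secreted superoxide dismutase, had 7.4, 7.46, 8.18 and 8.33 on the strong arrays and 5.85, 6.03, 6.05 and 5.91 on the mild arrays (difference 1.88, adjusted p = 0.000775). *sod-3*, the mitochondrial manganese form that FOXO drives, had 5.93, 6.92, 6.23 and 5.51 on the strong and 4.59, 4.9, 4.88 and 4.66 on the mild arrays (difference 1.39). They and *mtl-1* were among 4 rises in 30 antioxidant and metallothionein genes, against 1 fall (4 without strong III). Of 17 cytosolic heat shock genes 3 rose, including the small heat shock gene *hsp-17* at 1.04, and 2 fell, including *hsp-12.1* at −1.3 (1 fall without strong IV, strong V or mild V). *fmo-1* differed by 0.92, so 2 of 5 flavin-containing monooxygenases rose. Of 11 genes of the hypoxia and sulfide response 2 rose with all arrays, 0 without mild IV or mild V and 1 without any 1 of strong I, strong III, strong V, mild III and the control arrays. The nuclear receptor *nhr-57*, a target of HIF-1, was one of them with 6.85, 7.03, 6.23 and 6.92 on the strong and 5.92, 5.81, 5.06 and 4.49 on the mild arrays (difference 1.44). Its call ended without mild IV, mild V or strong V (adjusted p up to 0.0723).

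Among genes of defence against microbes each list held more rises than falls. *clec-42* and *clec-17*, of the C-type lectin family of secreted sugar-binding proteins, rose by 3.55 and 3.15. *clec-17* had 6.21, 6.43, 6.01 and 6.54 on the strong arrays, against 2.91, 3.79, 3.11 and 2.81 on the mild arrays (adjusted p = 4.00e-05). Of 247 C-type lectin genes 22 rose (8.91%, beside 6.30% over all genes) and 3 fell (1.2%, beside 4.31%). Without 1 of strong V, mild I and mild V 1 fell, and 10 to 14 rose without 1 of strong I, strong IV, strong V, mild III and mild V. *lys-7*, a lysozyme of the intestine, had 6.48, 5.6, 6.54 and 5.38 on the strong and 3.59, 4.45, 3.1 and 3.8 on the mild arrays (difference 2.26), as 1 of 3 rises in 16 lysozyme genes (1 without 1 of strong IV, strong V, mild I, mild III and mild V). The 1 fall among the 16 was that of *ilys-5*. *irg-1*, induced when pathogens block translation, had 6.92, 6.34, 7.65 and 7.43 on the strong and 4.75, 4.4, 5.29 and 4.67 on the mild arrays (difference 2.3), while *irg-3* fell by 1.77. *dod-20*, a CUB-like gene, differed by 2.4. Of 18 CUB-like and infection response genes 4 rose (22.2%) and 1 fell (5.56%). Without strong IV or mild V 2 of the 18 rose, and without strong I or mild III 3 fell. *spp-17*, of the saposin-like family, differed by −2.16, a call that ended without mild III (adjusted p = 0.0516). Of 45 genes for saposin-like proteins, caenacins and antibacterial factors 7 rose (15.6%) and 4 fell (8.89%). Without 1 of strong IV, mild I and mild III 4 of the 45 rose, and without strong IV or mild III 1 fell. Of 37 pals genes, a family that reacts to intracellular infection, 10 rose and 0 fell, with *pals-23* at 2.56. Of 340 F-box A, B and C genes 45 rose (27 without strong V or mild V) and 1 fell (4 without strong III, 0 without 1 of strong V, the mild arrays and controls III and V), with *fbxa-24* at 8.19, 7.27, 8.48 and 8.72 on the strong and 4.55, 3.51, 4.3 and 4.57 on the mild arrays and *fbxc-58* at 2.4. The means of 222 of these F-box genes lay below 3.01 in all groups. With all arrays 13.2% of the F-box genes rose and 0.29% fell, beside 6.30% and 4.31% over all genes.

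Nuclear hormone receptors are ligand-regulated transcription factors, a family that is large in worms. Of 271 receptors 52 rose (19.2%, beside 6.30%) and 4 fell, at a median of 0.21 and with 82 below 3.01 in all groups. *nhr-61* had 6.58, 5.34, 6.4 and 7.03 on the strong arrays, against 4.2, 4.17, 4.44 and 3.88 on the mild arrays (difference 2.16, adjusted p = 0.00115), and *nhr-3* differed by 1.54. *nhr-235* moved the other way, with 2.92, 2.87, 3.52 and 3.76 on the strong and 5.53, 5.03, 5.39 and 5.09 on the mild arrays (difference −1.99). Without strong V or mild V 31 to 32 receptors rose, and the falls numbered 2 without 1 of strong I, strong IV, strong V, mild III, mild IV and mild V and 7 without strong III. *elt-2*, the GATA factor that specifies and maintains the intestine, had 8.51, 8.41, 8.79 and 9.22 on the strong and 7.5, 7.73, 6.9 and 7.23 on the mild arrays (difference 1.39, adjusted p = 0.00645). It was the 1 of 19 intestine markers and GATA factors that passed. These genes summed to 8632 to 9146 on the strong, 5620 to 8933 on the mild and 5340 to 8427 on the control arrays, and the part of intestinal RNA in the results above was not tested.

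**Figure D4:**
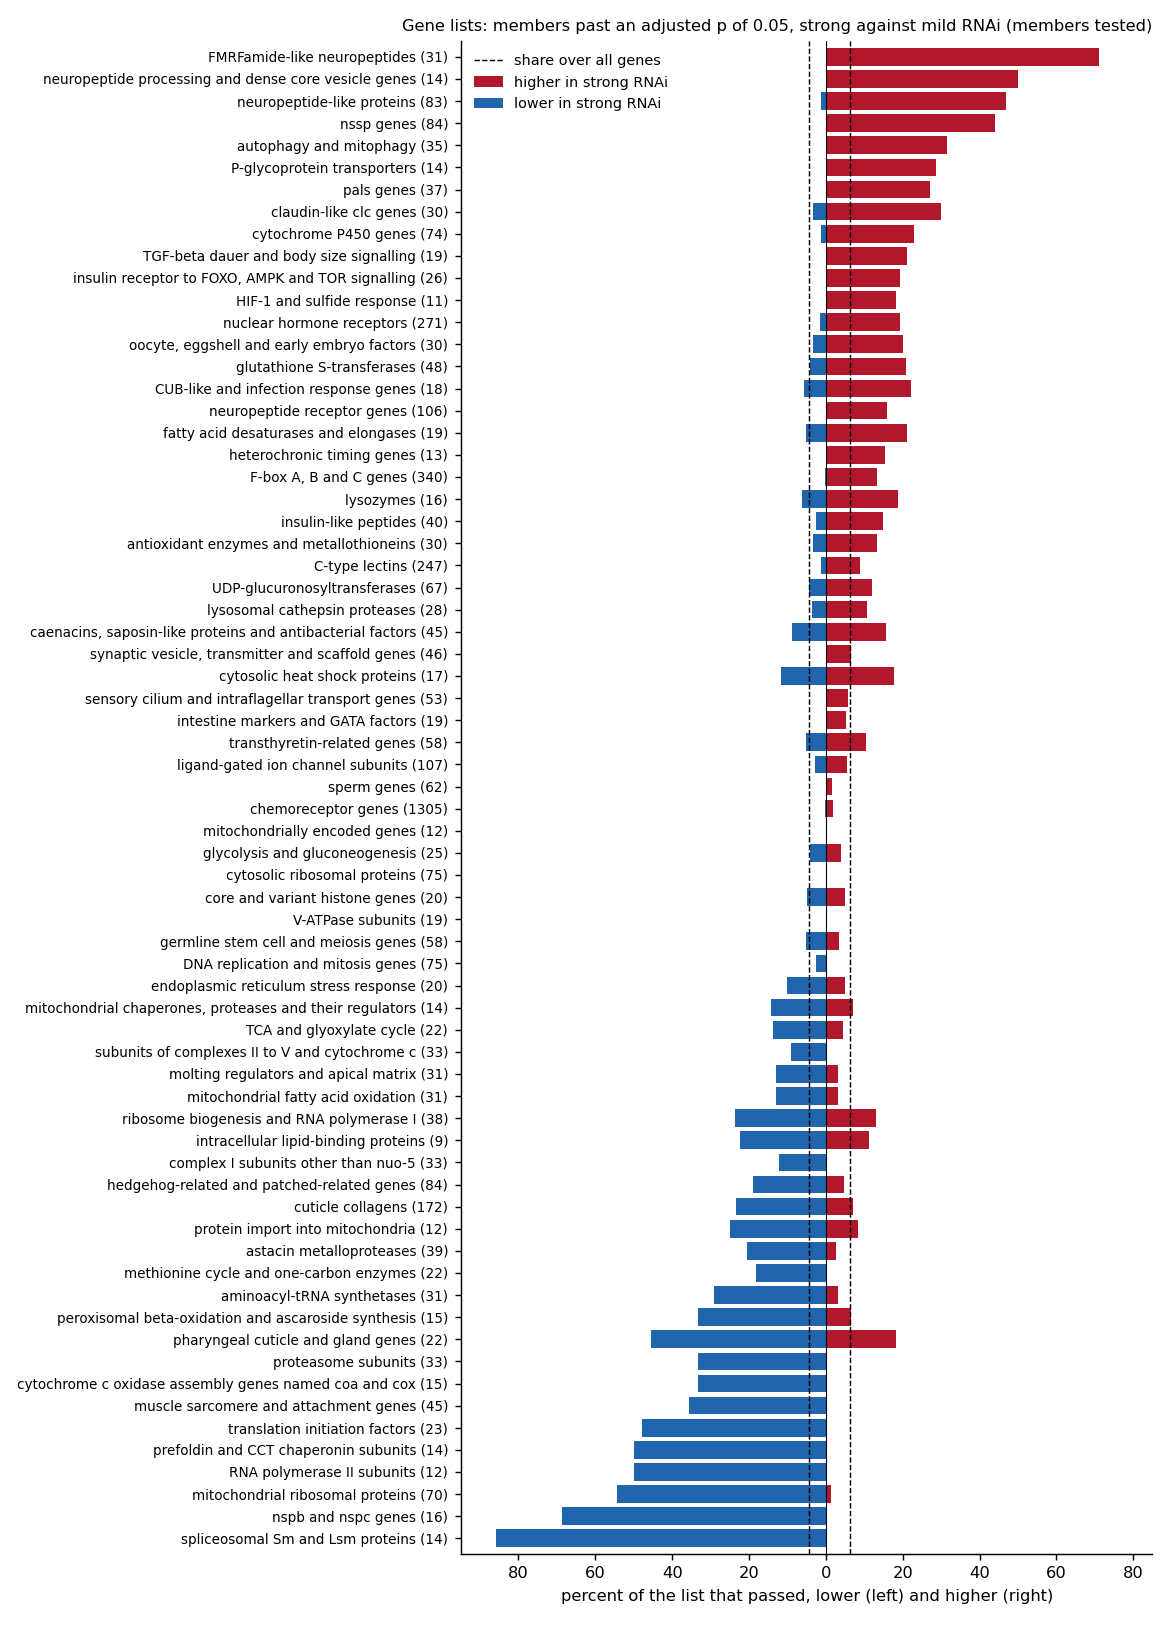
Percent of each gene list of at least 9 members that passed as higher (red, right) or lower (blue, left) under strong against mild RNAi, with the number of members in parentheses and dashed lines at the shares over all genes, 6.30% and 4.31%. Sm and Lsm genes (12 of 14 lower) and FMRFamide-like peptide genes (22 of 31 higher) stand at the ends. Some lists shown, that of the Sm and Lsm genes among them, were put together after values had been seen.

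Collagens make up the cuticle, and each molt lays down a set of its own. Of 172 cuticle collagen genes 40 fell, 12 rose and 120 did not pass. The falls were 23.3% of the list, beside 4.31% over all genes. The rises were 6.98%, near the 6.30% over all genes. Those that fell furthest are abundant in mild larvae. *col-145* had 6.6, 5.72, 4.47 and 4.77 on the strong arrays, against 8.41, 8.03, 8.5 and 8.74 on the mild arrays (difference −3.03, adjusted p = 0.00138), and *col-170* and *col-156* were at −2.61 and −2.6. Those that rose furthest were near the floor in mild larvae. *col-119* had 9.66, 3.14, 9.13 and 8.09 on the strong arrays and 2.37, 2.58, 2.7 and 2.35 on the mild arrays, and *col-143* had 10.3, 4.26, 10.05 and 9.01 on the strong and 3.92, 2.91, 3.01 and 3.63 on the mild arrays. Strong I, IV and V were thus far above all mild arrays, and strong III only just. *col-19*, the standard reporter of the adult cuticle, had 9.29, 3.44, 8.22 and 6.15 on the strong and 2.99, 2.63, 2.82 and 2.64 on the mild arrays, and its call ended without strong IV (adjusted p = 0.053). *col-7* and *col-62*, which are also used as adult collagens, were at −0.66 and 0.03 and did not pass. Without single arrays 5 (without strong IV) to 17 (without strong III) collagens rose, and 18 to 26 fell without 1 of strong IV, strong V, mild III, mild IV and mild V.

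**Figure D5:**
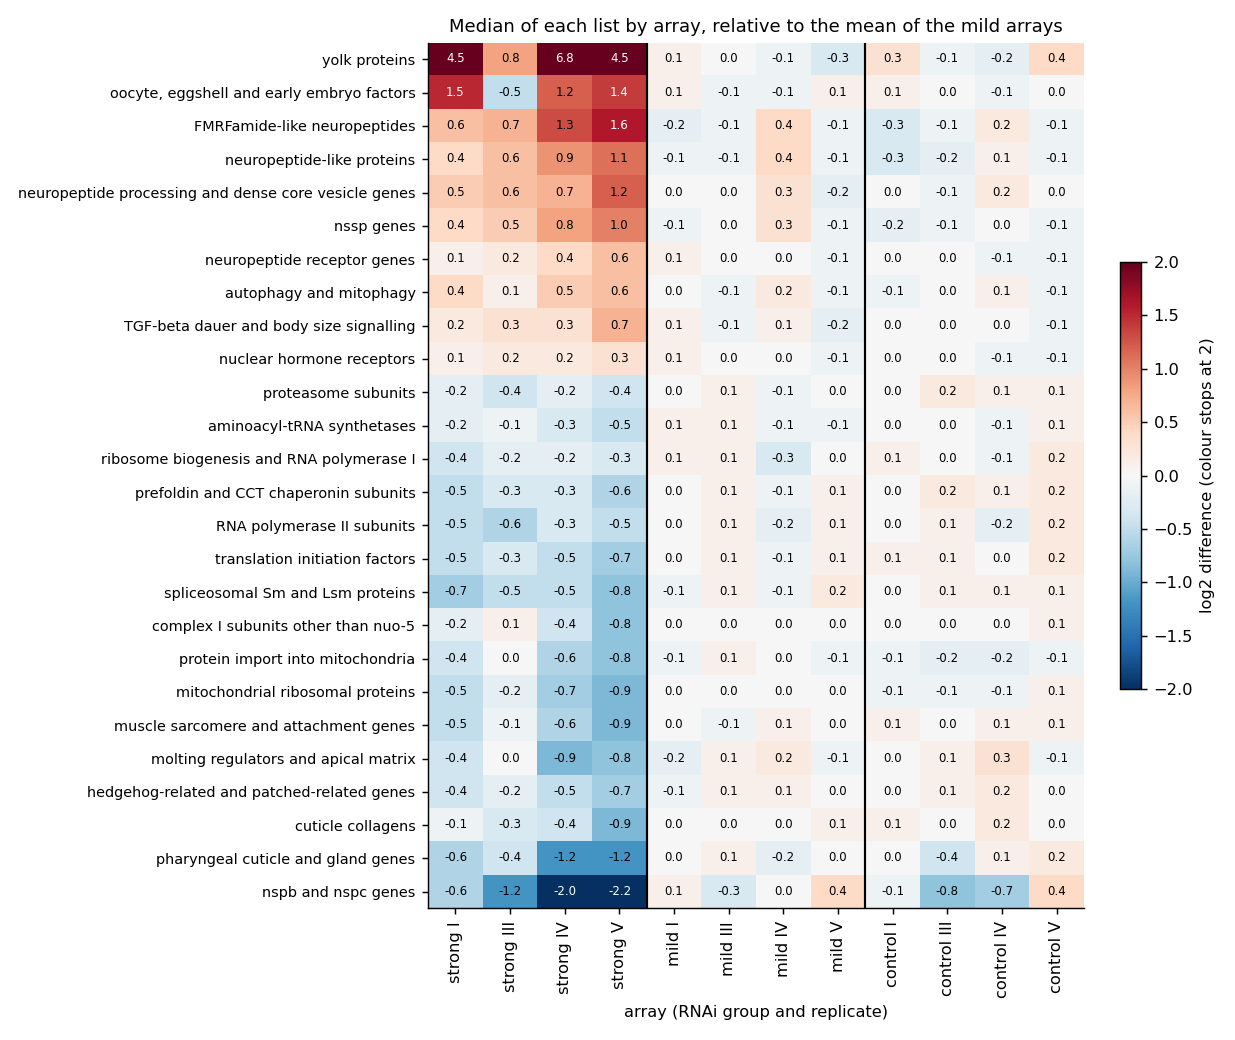
Median log2 value of each list's members (rows) on each array (columns: strong, mild, control), relative to the mean of the mild arrays for each gene, for 26 lists, with colour from blue to red stopping at 2. The strong columns are red for the peptide lists and blue for the splicing and translation lists, and strong III is near 0 for complex I and molting genes and negative for the oocyte list.

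The count of molting genes turned on strong array III. Of 31 molting regulator and apical matrix genes 4 fell and 1 rose (median −0.55), and without strong array III 16 fell. The 1 rise was lost without any 1 array other than control IV. By array the median was −0.40, −0.03, −0.91 and −0.77 on the strong arrays in replicate order. *mlt-8*, needed to shed the old cuticle, had 9.07, 9.64, 8.38 and 7.48 on the strong and 9.94, 10.32, 10.54 and 10.3 on the mild arrays (difference −1.63), and its call ended without strong IV (adjusted p = 0.0532). Without 1 of strong IV, strong V, mild I, mild III and mild IV 1 to 2 of the 31 fell. Of 84 hedgehog-related and patched-related genes, a nematode family expressed in the epidermis around molts, 16 fell and 4 rose, with 29 falls without strong III and 6 to 9 without 1 of strong IV, strong V, mild III, mild IV and mild V. The rises among them numbered 0 without strong V or mild V and 1 to 2 without 1 of strong IV, mild I, mild III, mild IV and controls III and V. With all arrays these rises were 4.76% of the list, below the 6.30% over all genes. Of 39 astacin metalloprotease genes, some of which cut the old cuticle, 8 fell and 1 rose (2 without strong III). *nas-14* had 3.44, 5.06, 3.32 and 3.34 on the strong and 5.31, 5.82, 5.6 and 5.14 on the mild arrays (difference −1.68), and *nas-36*, which acts in molting, was at −1.62. Among timing genes, 2 of 13 rose (4 without strong I) and 0 fell. *lin-41*, which holds back adult fates until the larval stages end, had 8.61, 9.38, 9.35 and 9.37 on the strong and 8.13, 8.52, 8.51 and 8.27 on the mild arrays (difference 0.82). *lin-14* and *lin-28*, which mark early larval stages, were at 0.60 and 0.42 and did not pass (adjusted p = 0.0811 and 0.288).

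Genes of the pharynx and of muscle were among the falls. Of 22 genes of the pharyngeal cuticle and glands 10 fell and 4 rose. The falls were of 7 abu genes, which form part of the lining of the pharynx, and 3 phat genes, which encode toxin-like peptides of the pharyngeal glands. *abu-7* had 7.24, 8.01, 6.51 and 6.21 on the strong and 9.08, 8.75, 8.55 and 9.37 on the mild arrays (difference −1.95). The 4 rises were of other phat genes, with *phat-3* at 6.25, 6.42, 6.48 and 6.16 on the strong and 3.8, 4.33, 4.44 and 3.82 on the mild arrays (difference 2.23, adjusted p = 0.000156). Without strong IV or mild V 6 of the 22 fell. Of 45 muscle sarcomere and attachment genes 16 fell and 0 rose, at a median of −0.57. *mup-2*, troponin T of the body wall, had 10.57, 10.95, 10.56 and 10.09 on the strong and 11.49, 11.38, 11.52 and 11.49 on the mild arrays (difference −0.93, adjusted p = 0.00502), and *cpn-3*, a calponin, and *tni-1*, a troponin I, were at −1.27 and −1.15. The major myosin *unc-54* was at −0.44 (adjusted p = 0.135). Without strong III 28 muscle genes fell, and without 1 of strong IV, strong V and the mild arrays 7 to 10. The 45 genes summed to 23450 to 36780 on the strong, 37880 to 42170 on the mild and 39640 to 45280 on the control arrays, with strong III the highest of the strong ones.

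Some families of small proteins of unknown function fell. Of 16 nspb and nspc genes 11 fell and 0 rose, at a median of −1.49, and of 7 idpc genes 5 fell and 0 rose (2 to 3 without 1 of strong IV, strong V, mild I, mild III and mild V). The 16 genes also varied among controls, whose list medians ran from −0.79 to 0.39 relative to the mild mean. Without strong IV or strong V 2 of the 16 fell, and 6 and 4 without mild I and mild V. Of 30 claudin-like clc genes 1 fell (0 without 1 of strong I, strong IV, strong V, mild IV, mild V and control III) and 9 rose, led by *clc-25* at 3.44 and *clc-11* at 3.4 (5 rises without strong IV or mild V). Y48E1B.8, which has no gene name, had 4.32, 7.97, 5.24 and 3.07 on the strong arrays and 8.75, 9.27, 8.82 and 8.41 on the mild arrays, and strong III was the highest strong array. *tsp-1*, a tetraspanin of the cell surface, had 8.07, 6.08, 9.91 and 9.91 on the strong and 4.26, 4.03, 3.86 and 3.44 on the mild arrays.

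Yolk and oocyte genes set strong array III apart from the other 3. Vitellogenins are lipid carriers that the adult intestine makes for oocytes. *vit-6* had 9.08, 3.95, 10.24 and 9.07 on the strong arrays, against 3.06, 3.0, 2.94 and 3.1 on the mild arrays and a control mean of 3.41. *vit-2* had 8.73, 3.89, 9.88 and 8.3 on the strong and 3.36, 3.21, 2.96 and 2.81 on the mild arrays, and *vit-5* had 7.26, 3.73, 10.71 and 7.3 on the strong and 2.87, 2.53, 3.27 and 2.45 on the mild arrays. They rose by 5.06, 4.62 and 4.47 (adjusted p = 0.00931, 0.0105 and 0.0159), and strong array III was only just above the mild arrays in each. The remaining members did not pass, with strong array IV at 8.26 for *vit-1* and 9.06 for *vit-4*. The 5 vitellogenin genes summed to 62.8 to 4670 on the strong arrays, of which strong III had the 62.8, against 41.5 to 58.8 on the mild and 43.8 to 62.7 on the control arrays.

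Oocyte genes were high on the same 3 arrays. Of 30 oocyte, eggshell and early embryo genes 6 rose and 1 fell with all arrays (2 falls without strong I or strong III), and 24 rose without strong array III (3 without strong IV, strong V or mild V). By array the list median stood at 1.46, −0.52, 1.25 and 1.43 on the strong arrays in replicate order over the mild mean. *perm-4*, which takes part in forming the permeability barrier of the eggshell, had 7.09, 4.58, 7.19 and 6.94 on the strong arrays, against 3.19, 3.65, 3.55 and 3.38 on the mild arrays (difference 3.01). *cpg-3*, a chondroitin proteoglycan of the eggshell, differed by 2.79. *puf-5*, an RNA-binding protein of late oocytes, had 7.95, 4.66, 7.72 and 7.86 on the strong and 5.06, 4.14, 4.18 and 4.07 on the mild arrays (difference 2.68), so that strong III lay below mild I. The 30 genes summed to 2539 to 8939 on the strong, 3869 to 4571 on the mild and 3894 to 4580 on the control arrays. Of 58 germline stem cell and meiosis genes 2 rose and 3 fell, of 75 DNA replication and mitosis genes 0 rose and 2 fell, and of 62 sperm genes 1 rose and 0 fell in limma. Higher calls were 3.45%, 0% and 1.61% of these lists, below the 6.30% over all genes. Lower calls were 5.17%, 2.67% and 0%, near or below the 4.31% over all genes. Without strong I 10 germline genes fell and without 1 of strong IV, strong V, mild I, mild III and mild V 1 did, while 4 rose without strong III, 1 without mild I or mild IV and 0 without 1 of strong IV, strong V, mild III and mild V. The 2 falls among replication genes were lost without 1 of strong IV, strong V, mild I and mild V and numbered 4 without strong I, and without strong III 4 replication and 4 sperm genes rose. *glh-1*, a helicase of germ granules, was at −1.13, with 6.4, 5.66, 6.16 and 5.19 on the strong and 7.25, 6.91, 6.6 and 7.17 on the mild arrays. The part that age, stage or germ cell number has in the yolk, collagen and oocyte results was not tested.

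Called genes were spread over all chromosomes. The share called higher ran from 5.1% on chromosome I to 7.53% on chromosome V, and the share called lower from 3.28% on the X chromosome to 5.99% on chromosome I, leaving aside the 12 mitochondrially encoded genes. There were 11 runs of at least 4 neighbouring genes called the same way, 9 of them higher. Beside the *acox-1* and T16G1 genes these include *clec-62* to *clec-65* on chromosome II, at 0.64 to 1.74, the genes *pals-16* to *pals-19* on chromosome III, at 0.75 to 1.21, and *nspc-1*, *nspc-3*, *nspc-4* and *nspc-7* on the X chromosome, at −2.29 to −1.3. Several of these runs hold copies of 1 gene, which may share probes.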

How the data were processed

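Expression was measured in whole animals, given by the study as L3 larvae, on 12 Affymetrix *C. elegans* Gene ST arrays, 4 per group. The deposited log2 values were made by the authors with RMA (background correction, quantile normalization between arrays and 1 summary per probe set), using the oligo package in R. RMA puts all arrays on 1 distribution, so a shift common to all genes cannot be seen, and changes of dim or very bright probe sets are understated. Values ran from 1.32 to 14.49. Precision is limited by how many arrays there are, and near-identical family members may share probes.

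All 29317 probe sets were fitted with limma 3.58.1 in R 4.3.3 (3 group means over 12 arrays, with pooled spread and empirical Bayes moderation). Strong minus mild was called at a Benjamini-Hochberg adjusted p of 0.05, taken across every probe set. Each of 25478 genes is given by its brightest probe set. Of the probe sets, 25546 had 1 gene symbol, 646 several and 3125 none, and names came from the platform annotation, with 25495 matched to RefSeq genes (WBcel235). Of 57 genes on several probe sets, 4 had calls that differed and 0 opposite ones. In simulated arrays 67 of 100 changes of 1 and 96 of 100 changes of 2 on the log2 scale were recovered over 29317 probe sets, with 7 unchanged ones called. The simulation gave each probe set 1 spread for all arrays and the same shift on all 4 strong arrays. It does not cover a group with a deviating array such as strong III. Tables and figures used Python 3.11.15, pandas 2.3.3, scipy 1.17.1 and matplotlib 3.10.9.

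Genes were named by rule: *nuo-5*, *fmo-2*, T16G1.6 and B0205.13, the 15 largest rises and 15 largest falls whose arrays did not overlap, and up to 4 members of each list in each direction. Genes that define a role are given with values and no verb of change. The groups, 60 lists and the rule were chosen with earlier results of these data known, and 13 further lists after values had been seen. The alternatives tried were a fit of 8 arrays, replicate blocks, other normalizations, a filter on dim probe sets, other moderation, array weights, other probe sets, other thresholds and leaving out each array.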

Additional observations from a re-analysis of the deposited data

Results flagged for a closer look

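Of 468 sets of 4 arrays (the genes given by name in each group), 25 held 1 array whose gap to the nearest of the other 3 took up more of the group's range than Dixon's critical value for 4 arrays allows, and chance alone marks about 5% of such sets. Strong array III had 6 of them, the most of any array. The values below are log2, each with the range of the other 3 arrays of its group. On strong array I it was *lin-41* at 8.61 (others 9.35 to 9.38). On strong array III they were *acox-1.2* at 5.66 (others 3.85 to 4.14), *acox-1.1* at 8.22 (others 7.56 to 7.65), *nas-14* at 5.06 (others 3.32 to 3.44), *perm-4* at 4.58 (others 6.94 to 7.19), *cpg-3* at 4.59 (others 6.97 to 7.46) and *puf-5* at 4.66 (others 7.72 to 7.95). On strong array IV they were *gst-15* at 5.97 (others 3.56 to 3.95) and *vit-4* at 9.06 (others 3.44 to 3.73). On strong array V they were *rpt-2* at 8.77 (others 9.24 to 9.31) and *nssp-62* at 8.74 (others 7.92 to 8.05). On mild array I they were *puf-5* at 5.06 (others 4.07 to 4.18) and *vit-4* at 4.5 (others 3.24 to 3.28). On mild array III it was *acox-1.3* at 5.35 (others 6.23 to 6.40). On mild array IV it was K01D12.9 at 8.96 (others 10.26 to 10.39). On control array I they were *nlp-5* at 3.81 (others 4.14 to 4.21) and *fbxc-58* at 3.56 (others 2.67 to 2.81). On control array III they were *atfs-1* at 8.92 (others 8.80 to 8.81), *pmt-2* at 9.87 (others 9.24 to 9.31), *mel-32* at 10.36 (others 9.72 to 9.78) and *clec-42* at 6.00 (others 4.52 to 4.72). On control array IV they were B0205.13 at 7.85 (others 8.44 to 8.50), *fbxa-24* at 5.78 (others 3.82 to 4.11), Y48E1B.8 at 8.10 (others 8.99 to 9.03) and *ins-11* at 5.92 (others 4.13 to 4.41).

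Probe sets that carry no gene symbol or several were left out of the counts of genes. Of these, 99 were higher and 174 lower under strong than under mild RNAi at an adjusted p of 0.05 in limma.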

How the results depend on the processing

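The counts of 1606 higher and 1097 lower genes stayed within 1.5 times under median centring (1312 and 1295, which moved the share of higher calls to 50.3% beside 59.4%), repeated quantile normalization (1428 and 1287), a filter on dim probe sets (1727 and 1203), trended and robust moderation (1556 and 1123), probe sets with 1 symbol (1690 and 1175) and means of probe sets (1691 and 1173). Array weights gave 2258 higher and 1684 lower genes. A fit of the 8 strong and mild arrays alone gave 944 and 527, an added threshold of 1 on the log2 difference gave 802 and 370, and an adjusted p of 0.01 gave 510 and 215. Leaving out 1 array gave 891 (without mild V) to 2094 (without strong III) higher and 518 (without strong IV) to 1551 (without strong III) lower genes. Of 33 complex I genes, 14 fell with array weights and 1 in the fit of 8 arrays. The cause of these shifts was not tested.

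Replicate numbers were not taken to pair the samples, since the deviations of same-numbered strong and mild arrays correlated at 0.233, 0.121, 0.036 and 0.037 (replicates I, III, IV and V) and 2 of 4 strong arrays correlated best with their own number. Same-numbered mild and control arrays were not compared in this way. In some lists, such as the intestine markers, their medians moved together. Whether the numbers mark shared runs was not tested. With the number as a block over 12 arrays 1828 genes were higher and 1325 lower, and with the block over 8 arrays 705 and 351.

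The difference of *nuo-5* stayed between −0.45 and −0.28 and never passed (adjusted p 0.0685 to 0.277). Of the genes given by name 13 had not passed. Of those that had, 17 lost the call without at least 1 single array, 90 kept it under each of the 10 alternatives that neither leave out an array nor change the threshold, and 88 kept it under all of these. Signs turned only for genes that had not passed. *col-62* was at −0.0354 with arrays centred on their medians and ran from −0.21 (without strong I) to 0.19 (without strong V). Without strong IV *vit-1* was at −0.0917 and *vit-4* at −0.0269, against up to 1.65 for *vit-1* without strong III and 1.85 for *vit-4* without strong V.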
